A study of Homo sapiens with 13 samples.

Results

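The FOXO and MYC mixed arrays are designed enhancers in which motifs of the FOXO and the MYC transcription factors alternate or are combined and no other motif is present. They were chosen by name: a construct belonged to the set when its motif order, as written in the deposited tables, held exactly FOXO and MYC. This gave 21 of 542 constructs, made of 7 motif orders that each occurred in 3 flanking contexts. The orders were FOXO_MYC and MYC_FOXO with 2 motif copies, FOXO_MYC_FOXO and MYC_FOXO_MYC with 3, FOXO_MYC_FOXO_FOXO and FOXO_MYC_FOXO_MYC with 4, and FOXO_MYC_FOXO_MYC_FOXO with 5. A number after an array's name gives its flanking context, so FOXO_MYC_2 is FOXO_MYC in context 2. All 21 arrays were found in the episomal library with 5 bp between motifs and in the integrated library, and 18 of the 442 constructs of the episomal library with 10 bp between motifs were members, because MYC_FOXO_MYC was not analysed there.

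FOXO proteins are forkhead transcription factors that are held in the cytoplasm when PI3K and AKT signalling is active, and their targets include genes of cell cycle arrest and apoptosis. MYC binds E-box motifs as a dimer with MAX and is known for driving growth and proliferation, while other partners of MAX, such as the MXD proteins, repress transcription from the same motif. Both families act in B lymphocytes, where FOXO1 is needed for B cell identity and MYC for rapid division. None of these proteins was measured here: the names FOXO and MYC stand for motifs in the reporter.

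STARR-seq places a candidate enhancer inside its own transcript, and a stronger sequence takes a larger share of the reporter mRNA. MEC1 is a B cell line established from chronic lymphocytic leukaemia, its genotype was given as wild type in all samples, and no treatment was tested. For each of the 2 spacer lengths, mRNA was collected from 2 transfections 24 h after electroporation and set against 1 plasmid DNA library. For the integrated assay, the library with 5 bp spacers was delivered in 8 transfection sets to MEC1 cells with a landing pad, CMV promoter and GFP between loxP and lox2272 sites, which were grown with blasticidin beforehand because it was tied to their CRE recombinase. Cells without GFP were sorted after about 10 to 12 days, and 3 extractions of mRNA and of genomic DNA were made 6 to 7 days after the sort. Constructs named rd, 1 for each context, carry no motif name and served as motif-free arrays. The other comparison arrays were homotypic, with 1 to 5 copies of FOXO or of MYC alone. P-values measure only the spread between transfections or extractions, which may be technical, and each spacer had its own plasmid pool and transfections, so that spacer length and library cannot be told apart.

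Each construct was read through random 12 bp barcodes. The mixed arrays held 12583 barcodes with 5 bp spacers (median 531 an array, lowest 154, highest 1527) and 10516 with 10 bp spacers (median 447, lowest 275, highest 1458). The integrated library held only 811 (median 38, lowest 11, highest 109). In the 5 bp library no barcode carried more than 3.15% of the mRNA of its array, and with 10 bp spacers the highest share was 23.7%, in FOXO_MYC_FOXO_MYC_3. In the integrated library 1 barcode held over 50% of the mRNA in 6 of the 21 arrays. The integrated barcodes shown next each held most of the mRNA of their array:
FOXO_MYC_3: tatcctcagacg
FOXO_MYC_FOXO_1: tcataagcacta
MYC_FOXO_2: agatttctggct
MYC_MYC_MYC_3: tgacaagcgcag
The barcode of FOXO_MYC_3 held 83.9% of the mRNA of that array, that of FOXO_MYC_FOXO_1 72% and that of MYC_FOXO_2 68.2%. The fourth belongs to the homotypic array of 3 MYC copies in context 3, where it held 96.4% of the array's mRNA and 12.4% of all mRNA in the integrated table. A larger share of all integrated mRNA, 26.1%, came from 1 barcode of a construct with other motifs. Sequences of the motifs, spacers and flanks were not used here.

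With 5 bp spacers the mixed arrays were weak. Activity is the log2 ratio of an array's share of the mRNA reads to its share of the plasmid DNA reads. Across the 21 mixed arrays it averaged -1.05 ± 0.0047, against -0.80 ± 0.022 for the 15 homotypic FOXO arrays, -0.90 ± 0.081 for the 15 homotypic MYC arrays, -1.30 ± 0.0018 for the 3 rd constructs and -0.75 ± 0.0093 for all 542 constructs (SD, n = 2 mRNA libraries that share 1 plasmid DNA library). The members spread from -1.83 to -0.25, and the rd constructs lay between -1.55 and -1.12. A range over 21 arrays tends to be wider than one over 3, so the widths are not compared. Barcodes without mRNA reads are not listed in the episomal tables, so reporters that gave no mRNA do not enter these ratios.

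FOXO_MYC_FOXO_FOXO_2 was the most active member with 5 bp spacers, at -0.31 and -0.20 in the 2 mRNA libraries, rank 189 of 542. FOXO_MYC_FOXO_MYC_FOXO_2 followed at -0.47 and -0.53, and FOXO_MYC_FOXO_3 at -0.68 and -0.61. The replicates of these arrays lay apart by less than the arrays themselves did from the lowest members. MYC_FOXO_MYC_2 was lowest at -1.77 and -1.89, rank 422, followed by FOXO_MYC_FOXO_MYC_3 at -1.75 and -1.66 and MYC_FOXO_MYC_3 at -1.56 and -1.58. Of the 3 lowest members, 2 thus had a single FOXO motif between MYC motifs, and the 3 highest each started and ended with FOXO. In another context the same orders were lower, down to -1.34 for FOXO_MYC_FOXO_MYC_FOXO and -1.13 for FOXO_MYC_FOXO_FOXO. Orders that start and end with FOXO also hold more FOXO than MYC motifs. By motif order, MYC_FOXO_MYC averaged -1.62 over its contexts, FOXO_MYC_FOXO_MYC -1.23, FOXO_MYC -1.03, MYC_FOXO -0.93, FOXO_MYC_FOXO_MYC_FOXO -0.92, FOXO_MYC_FOXO -0.82 and FOXO_MYC_FOXO_FOXO -0.77. The SD of these averages between the 2 mRNA libraries was between 0.0032 and 0.055, and FOXO_MYC_FOXO and FOXO_MYC_FOXO_FOXO did not differ beyond it.

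Set against plasmid DNA by edgeR's quasi-likelihood test with Benjamini-Hochberg adjustment over 442 constructs, 1 of the 18 mixed arrays present in both libraries was higher in 5 bp mRNA and 15 were lower. Among all 442 constructs, 40.5% were called higher and 49.5% lower. FOXO_MYC_FOXO_FOXO_2 was the array that rose, with an edgeR log2 ratio of 0.29 (SE 0.0676, adjusted p = 0.00081), and FOXO_MYC_FOXO_MYC_3 was lowest at -1.16 (SE 0.0697, adjusted p = 9.41e-11). This direction follows the scaling: scaled on the rd constructs, 14 were higher and 1 lower, and scaled by library totals 0 were higher. The median log2 ratio over all 442 constructs moved as well, by 0.75 with the rd scaling and by -0.67 with library totals. Shares of all constructs called under these scalings are not given. With the 5 bp libraries fitted alone, which adds MYC_FOXO_MYC, 2 of 21 were higher and 15 lower, beside 42.6% and 45.2% of all constructs. In that fit MYC_FOXO_MYC_1 had a log2 ratio of -0.73, MYC_FOXO_MYC_2 of -1.09 and MYC_FOXO_MYC_3 of -0.83 (edgeR adjusted p = 3.33e-06, 9.34e-07 and 9.63e-07).

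Differences between arrays of 1 library do not depend on its scaling. Relative to the rd construct of the same context, 12 of 21 mixed arrays were higher and 1 lower with 5 bp spacers (limma, adjusted p under 0.05), beside 61% higher and 27.6% lower among all arrays tested. The array that fell below its rd construct was MYC_FOXO_MYC_2, at -1.77 and -1.89 against -1.06 and -1.17, a difference of -0.71. The largest excess belonged to FOXO_MYC_FOXO_3, at -0.68 and -0.61 against -1.58 and -1.51 for rd_3, a difference of 0.90. FOXO_MYC_FOXO was above rd in all 3 contexts and MYC_FOXO_MYC in none. The median difference was 0.23 over the mixed arrays and 0.51 over all arrays, both relative to the same rd constructs, whose error all arrays of a context share.

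The main question of a mixed array is whether it differs from what its motifs do alone. Each one was therefore set against the homotypic FOXO and MYC arrays of equal total copies and the same context, weighted by the copies of each motif on the log2 scale. With 5 bp spacers 6 of 21 mixed arrays lay above this weighted mean and 12 below it (limma, adjusted p under 0.05). Over the mixed arrays of all pairs, 56.7% lay above and 30.4% below. The median departure was -0.19 for FOXO and MYC and 0.36 over all pairs, and among the 28 pairs of motifs the FOXO and MYC pair ranked 19 from the highest. Set against the stronger homotypic array in place of the mean, 1 lay above. The stronger array is never below the weighted mean, so departures from it are no higher by construction. The share over all pairs is not given for this reference.

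FOXO_MYC_FOXO_MYC_3 lay furthest below its references, with 1444 and 1347 mRNA reads from 5137 plasmid DNA reads. Its activity of -1.75 and -1.66 stood against -0.64 and -0.58 for 4 FOXO copies and -0.39 and -0.60 for 4 MYC copies, a departure of -1.15 (SE 0.084, limma adjusted p = 5.01e-05). Neither homotypic array overlapped it. MYC_FOXO_MYC was below the weighted mean in every context, by -0.71 (SE 0.0532) in context 1, -0.66 (SE 0.055) in context 2 and -0.48 (SE 0.0534) in context 3, with limma adjusted p-values of 0.000167, 0.000234 and 0.0007. These 3 values rest on the 5 bp libraries alone. Of the members above the mean, FOXO_MYC_FOXO_FOXO_2 departed furthest, by 0.69 (SE 0.0793, limma adjusted p = 0.00033): its -0.31 and -0.20 stood above -0.79 and -0.76 for 4 FOXO copies and -1.37 and -1.54 for 4 MYC copies.

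The departures differed by context. All 7 mixed arrays in context 1 were below the weighted mean, by between -0.17 and -0.71, whereas in context 2 there were 4 above and 1 below, and in context 3 there were 2 above and 4 below. The shares over all pairs are pooled over contexts, so whether other pairs differed by context in the same way was not tested. The homotypic MYC arrays differed between the same contexts: 2 MYC copies reached -0.10 and -0.18 in context 1, against -1.33 and -1.42 in context 2 and -0.90 and -0.96 in context 3. FOXO_MYC_1 had -1.03 and -1.02 and MYC_FOXO_1 -1.05 and -0.98, both far below 2 MYC copies and also below 2 FOXO copies (-0.78 and -0.70). Both 2-copy departures in context 1 were -0.58 (limma adjusted p = 0.000108 and 0.000153). Between contexts 2 and 1 the 2-copy mixed arrays themselves differed by -0.024 for FOXO_MYC and -0.0056 for MYC_FOXO (limma adjusted p = 0.804 and 0.956). Between contexts 3 and 1 the differences were -0.014 for FOXO_MYC and 0.26 for MYC_FOXO (limma adjusted p = 0.872 and 0.030). The last was not called in 3 of 10 settings. How much of a change in departure came from the mixed array and how much from the homotypic reference was not tested.

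Set against each homotypic array separately, the mixed arrays were more often below than above both. Against the FOXO array of equal copies 2 of 21 were higher and 11 lower with 5 bp spacers, beside 57.4% and 22.1% of all mixed arrays set against the alphabetically first motif of their pair. Against the MYC array 7 were higher and 12 lower, beside 48.3% and 37.9% for the second motif of all pairs. All 7 mixed arrays of context 1 fell below the MYC array there, and 6 of 7 in context 2 rose above it. Shares by context over all pairs are not given. FOXO_MYC_FOXO_MYC_3 was the lowest against both, at -1.09 against 4 FOXO copies and -1.21 against 4 MYC copies.

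Arrays of 3 copies differed when the motifs were exchanged. With 5 bp spacers FOXO_MYC_FOXO exceeded MYC_FOXO_MYC in all 3 contexts: by 0.45 (SE 0.0732) in context 1, 1.02 (SE 0.0764) in context 2 and 0.93 (SE 0.0691) in context 3 (limma adjusted p = 0.00319, 0.000231 and 0.000231). In the 2 mRNA libraries of context 3 the arrays read -0.68 and -0.61, against -1.56 and -1.58. At 3 copies the exchange also changes the number of FOXO motifs, which is 2 in FOXO_MYC_FOXO and 1 in MYC_FOXO_MYC, so order and composition cannot be told apart. At 2 copies, where it changes the order alone, FOXO_MYC and MYC_FOXO differed by -0.0041 in context 1 and -0.022 in context 2, and neither passed the test. In context 3 FOXO_MYC was lower by -0.28 (SE 0.0728, limma adjusted p = 0.0134), a call that was lost without mRNA replicate 1 (adjusted p = 0.0601). Of the 6 exchanges 3 were higher and 1 lower, beside 40% and 36.8% over all pairs.

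FOXO_MYC_FOXO_FOXO and FOXO_MYC_FOXO_MYC share their first 3 motifs and end with FOXO or with MYC. With 5 bp spacers the array that ends with FOXO was higher by 0.48 (SE 0.0935) in context 2 and 0.77 (SE 0.0515) in context 3 (limma adjusted p = 0.00972 and 0.000473), while the 0.13 of context 1 did not pass the test. Over the same exchange in all pairs 33.3% were higher and 47.2% lower. This exchange was added after the values were seen, and it too changes the number of FOXO motifs.

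With 10 bp spacers the mixed arrays lay in the lower part of the library. Their activity averaged -1.50 ± 0.066 over 18 arrays, against -1.20 ± 0.033 for homotypic FOXO, -1.83 ± 0.085 for homotypic MYC, -0.62 ± 0.076 for rd and -0.69 ± 0.012 for all 442 constructs (SD, n = 2). The homotypic averages again include arrays of 1 copy, at -0.48 for FOXO and -1.01 for MYC. Averages at equal total copies are given below. The highest members were FOXO_MYC_FOXO_3 at -0.95 and -1.05 (rank 263 of 442), MYC_FOXO_3 at -0.99 and -1.02 and FOXO_MYC_FOXO_FOXO_3 at -1.01 and -1.07. All of these were context 3 arrays, and they did not differ beyond the spread of their replicates. The lowest members were FOXO_MYC_FOXO_MYC_2 at -2.32 and -2.43 (rank 382), FOXO_MYC_FOXO_MYC_1 at -1.93 and -2.04 and FOXO_MYC_FOXO_MYC_3 at -1.83 and -1.89. FOXO_MYC_FOXO_MYC was thus the lowest order in every context, below the 5-copy array that adds 1 more FOXO.

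By edgeR all 18 mixed arrays were lower in 10 bp mRNA than in plasmid DNA and 0 were higher, beside 48.6% lower and 45.7% higher among 442 constructs. The count stayed at 18 in all 13 alternative settings, scaling on library totals or on rd included. The log2 ratios ran from -1.82 (SE 0.0709, edgeR adjusted p = 2.52e-13) in FOXO_MYC_FOXO_MYC_2 to -0.44 (SE 0.0585, edgeR adjusted p = 1.84e-06) in FOXO_MYC_FOXO_3. Relative to rd of the same context 14 of 18 were lower and 0 higher (limma), beside 44% lower and 44.6% higher among all arrays. All 6 arrays of context 1 and all 6 of context 2 were among the 14, and in context 3 FOXO_MYC_FOXO_MYC and FOXO_MYC_FOXO_MYC_FOXO were. The shares over all arrays are pooled over contexts. The difference reached -2.06 for FOXO_MYC_FOXO_MYC_2, at -2.32 and -2.43 against -0.27 and -0.35 for rd_2.

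With 10 bp spacers the mixed arrays lay on both sides of their homotypic references. Against the copy-weighted mean 8 of 18 lay above and 4 below (limma), beside 66% above and 21.7% below over all pairs, with medians of 0.078 and 0.53. The pair ranked 18 of 28 by this median. Set against the stronger homotypic array, which is never below the weighted mean, 1 lay above and 9 below. The share over all pairs is not given for this reference. FOXO_MYC_FOXO_MYC_FOXO_1 departed furthest from the weighted mean, by 0.60 (SE 0.0577, limma adjusted p = 0.000138), at -1.22 and -1.27 against -1.62 and -1.62 for 5 FOXO copies and -2.16 and -2.23 for 5 MYC copies. It exceeded both homotypic arrays. FOXO_MYC_FOXO_MYC_FOXO_2 departed by 0.53 (SE 0.052, limma adjusted p = 0.000156) and FOXO_MYC_FOXO_FOXO_3 by 0.53 (SE 0.0754, limma adjusted p = 0.000879). The MYC reference was low here: 5 MYC copies in context 2 stood at -3.11 and -3.27, and FOXO_MYC_FOXO_MYC_FOXO_2 was not separated from 5 FOXO copies (difference -0.14, limma adjusted p = 0.143). Furthest below the mean was FOXO_MYC_1 at -0.46 (SE 0.0509, limma adjusted p = 0.000267).

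At 2, 3, 4 and 5 copies the mixed arrays averaged -1.34, -1.38, -1.72 and -1.52 with 10 bp spacers. At the same totals FOXO arrays averaged -1.15, -1.42, -1.52 and -1.45, and MYC arrays -1.44, -1.88, -2.44 and -2.39. From 3 copies on the mixed average lay nearer to that of FOXO. These longer arrays were also richer in FOXO motifs. FOXO_MYC_FOXO holds 2 FOXO and 1 MYC, FOXO_MYC_FOXO_FOXO 3 and 1, and FOXO_MYC_FOXO_MYC_FOXO 3 and 2. Among the longer orders only FOXO_MYC_FOXO_MYC holds equal numbers, and MYC_FOXO_MYC was not analysed with 10 bp. Composition and total copies therefore cannot be told apart. Against the MYC array of equal copies 13 of 18 mixed arrays were higher and 2 lower (limma), beside 58.7% and 32% over all pairs. Against the FOXO array 3 were higher and 9 lower, beside 58.8% and 20.6%. FOXO_MYC_FOXO_MYC was below 4 FOXO copies in all 3 contexts, by -0.58, -0.57 and -0.51. FOXO_MYC_FOXO_FOXO, which differs from 4 FOXO copies by 1 motif, was above them in context 3 (0.32, limma adjusted p = 0.0121, not called without the barcode with the most mRNA or with the median over barcodes) and did not pass the test in contexts 1 and 2 (0.053 and 0.13).

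The exchange of the fourth motif passed in all 3 contexts at 10 bp. FOXO_MYC_FOXO_FOXO_1 read -1.29 and -1.42, against -1.93 and -2.04 for FOXO_MYC_FOXO_MYC_1, a difference of 0.63 (SE 0.0545, limma adjusted p = 0.000921). FOXO_MYC_FOXO_FOXO_2 read -1.65 and -1.69, against -2.32 and -2.43, a difference of 0.70 (SE 0.0935, limma adjusted p = 0.00345). FOXO_MYC_FOXO_FOXO_3 read -1.01 and -1.07, against -1.83 and -1.89, a difference of 0.82 (SE 0.0515, limma adjusted p = 0.000373). The replicates of the array with MYC at the fourth place lay below those of the array with FOXO in every context. Over all pairs 36.1% of these exchanges were higher and 41.7% lower. The 3 calls held in all 10 settings run, with differences between 0.62 and 1.05.

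At 2 copies and 10 bp, FOXO_MYC minus MYC_FOXO was -0.19 (SE 0.0615, limma adjusted p = 0.0407) in context 1, -0.19 (limma adjusted p = 0.0727) in context 2 and -0.049 in context 3. Thus 0 of 3 were higher and 1 lower, beside 25.3% and 31% over all pairs. The call in context 1 was not made with at least 20 plasmid reads per barcode, without mRNA replicate 1 or 2 of the 10 bp library, with the replicate block or without the barcode with the most mRNA. No order difference passed the test for a change between spacers by limma (0 of 3 in either direction, beside 29.9% and 19.5%, and 0 at an unadjusted p under 0.05).

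Between spacers, 14 of 18 mixed arrays had a lower ratio of mRNA to plasmid DNA with 10 bp than with 5 bp and 0 a higher one (edgeR, interaction of spacer and material). Among all 442 constructs 41.2% were lower and 36% higher. The decrease was largest in context 2: FOXO_MYC_FOXO_MYC_2 read -2.32 and -2.43 with 10 bp, against -0.71 and -0.76 with 5 bp, a difference in the edgeR log2 ratio of -1.63 (SE 0.102, adjusted p = 3.95e-10). FOXO_MYC_FOXO_FOXO_2 read -1.65 and -1.69, against -0.31 and -0.20, a difference of -1.41 (SE 0.0973, edgeR adjusted p = 1.54e-09). FOXO_MYC_FOXO_MYC_FOXO_2 read -1.59 and -1.70, against -0.47 and -0.53, a difference of -1.13 (SE 0.105, edgeR adjusted p = 5.53e-08). The arrays of 4 and 5 copies in context 2 thus lay in the lower part of the members with 10 bp and in the upper part with 5 bp. At 2 copies the decrease was largest in context 1, with edgeR differences of -0.66 for FOXO_MYC_1 and -0.48 for MYC_FOXO_1. In context 2 these orders had -0.42 and -0.25. The 4 arrays without a call were FOXO_MYC_3, FOXO_MYC_FOXO_FOXO_1, FOXO_MYC_FOXO_FOXO_3 and FOXO_MYC_FOXO_MYC_3, with differences between -0.21 and -0.0068.

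The rd constructs, in contrast, had higher activities with 10 bp spacers, and differences taken against them include this. They read -0.68, -0.31 and -0.87 in contexts 1 to 3 with 10 bp, against -1.25, -1.12 and -1.55 with 5 bp. Relative to rd all 18 mixed arrays were lower with 10 bp than with 5 bp and 0 higher (limma), beside 67.9% and 15.7% of all arrays, with a median of -1.06 over the mixed arrays and -0.76 over all. Relative to the copy-weighted mean of homotypic arrays, by contrast, 11 were higher with 10 bp and 2 lower, beside 35.5% and 34.6%, with medians of 0.24 and -0.014. Leaving out barcodes that had fewer than 20 reads in the plasmid library gave 5 higher and 1 lower. Of 13 settings, the higher call was not made in 9 for FOXO_MYC_FOXO_3, 7 for FOXO_MYC_FOXO_MYC_1 and 6 for MYC_FOXO_2. It was made in all 13 for FOXO_MYC_FOXO_1, FOXO_MYC_FOXO_FOXO_3, FOXO_MYC_FOXO_MYC_3 and FOXO_MYC_FOXO_MYC_FOXO_1. Against MYC arrays 11 were higher and 0 lower (40.1% and 36.3% over all pairs), and against FOXO arrays 5 were higher and 6 lower (28.4% and 39.1%). FOXO_MYC_FOXO_MYC_FOXO_1 was higher with 10 bp against both, by 0.95 against FOXO and 1.25 against MYC.

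The largest such change was in FOXO_MYC_FOXO_MYC_FOXO_1, 0.60 above the weighted mean with 10 bp and -0.47 from it with 5 bp, a difference of 1.07 (SE 0.0816, limma adjusted p = 0.000214). FOXO_MYC_FOXO_MYC_3 changed by 1.06 (SE 0.119, limma adjusted p = 0.000724), to -0.085 with 10 bp, against -1.15 with 5 bp. FOXO_MYC_FOXO_FOXO_3 changed by 0.87 (SE 0.107, limma adjusted p = 0.000993). Lower departures with 10 bp were called in FOXO_MYC_FOXO_2 (-0.26, SE 0.0697, limma adjusted p = 0.0186, not called in 2 of 13 settings) and FOXO_MYC_FOXO_MYC_2 (-0.36, SE 0.0689, limma adjusted p = 0.00609), both in context 2. The 3 FOXO_MYC arrays did not pass this test in any context, with changes between 0.058 and 0.12.

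In the series that starts with FOXO, activity was followed over added motifs. The slope was taken over 2 to 5 copies, with both 4-copy orders included. The share of FOXO among the motifs also changes along this series, so total copies and composition cannot be told apart. With 5 bp spacers it was 0.0025 log2 units a copy in context 1, which did not pass the test, 0.20 (SE 0.0416) in context 2 and -0.17 (SE 0.0418) in context 3 (limma adjusted p = 7.45e-05 and 0.000625). With 10 bp spacers it was 0.10 (SE 0.0416), -0.11 (SE 0.0416) and -0.23 (SE 0.0418), with limma adjusted p-values of 0.0231, 0.0157 and 1.31e-05. The 10 bp slope was not called in 5 of 11 settings in context 1 and in 3 of 11 in context 2, and the 5 bp slope in context 3 in 1 of 11 (leaving out 1 replicate was among these settings in each context). In context 2 the slopes without the 5-copy array were -0.28 with 10 bp and 0.28 with 5 bp. Beside the 1 higher and 1 lower slope at 5 bp stood 33.3% and 30.6% of all series, and beside the 1 higher and 2 lower at 10 bp 27.8% and 58.3%. The slope in context 1 at 10 bp came to -0.0049 without the 5-copy array, so that it rests on this array. In context 2 the slope differed between spacers by -0.32 (SE 0.0588, limma adjusted p = 2.45e-05; -0.56 without the 5-copy array), the 1 lower of 3 beside 58.3% of all series. With 0 of 3 higher beside 13.9%, the differences of 0.10 in context 1 and -0.061 in context 3 did not pass.

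The same motif order differed between flanking contexts. With 5 bp spacers 8 of 21 differences between contexts were higher and 6 lower (limma), beside 23.6% and 35.8% of all such differences. For the orders of 4 and 5 copies, context 2 was the strongest: FOXO_MYC_FOXO_FOXO_2 exceeded FOXO_MYC_FOXO_FOXO_1 by 0.88 (SE 0.0796, limma adjusted p = 0.000615), and FOXO_MYC_FOXO_MYC_3 lay -0.97 from FOXO_MYC_FOXO_MYC_2 (SE 0.0801, limma adjusted p = 0.000567). FOXO_MYC had no called difference between contexts, at -1.02, -1.05 and -1.04. With 10 bp spacers 11 of 18 were higher and 4 lower, beside 46.8% and 26.8%. There context 3 was the strongest for FOXO_MYC, MYC_FOXO, FOXO_MYC_FOXO and FOXO_MYC_FOXO_FOXO: FOXO_MYC_FOXO_3 exceeded FOXO_MYC_FOXO_2 by 0.64 (SE 0.0652, limma adjusted p = 0.000444) and FOXO_MYC_3 exceeded FOXO_MYC_1 by 0.64 (SE 0.070, limma adjusted p = 0.000563).

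For arrays of 4 copies the difference between contexts 3 and 2 had opposite signs with the 2 spacers. FOXO_MYC_FOXO_MYC_3 minus FOXO_MYC_FOXO_MYC_2 was 0.51 with 10 bp and -0.97 with 5 bp, a change of 1.48 (SE 0.113, limma adjusted p = 0.000236). Without the barcode with the most mRNA the 10 bp difference was 0.14 and was not called (limma adjusted p = 0.148), and the change was 1.12 and was called. FOXO_MYC_FOXO_FOXO_3 minus FOXO_MYC_FOXO_FOXO_2 was 0.63 with 10 bp and -0.67 with 5 bp, a change of 1.31 (SE 0.0831, limma adjusted p = 0.000167). Both 10 bp values include barcodes with a large share of their array, 23.7% in FOXO_MYC_FOXO_MYC_3 and 12.4% in FOXO_MYC_FOXO_FOXO_3. Of 18 context differences 7 were higher and 4 lower with 10 bp than with 5 bp, beside 49.3% and 19.3% of all.

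In the integrated library most mixed arrays gave little mRNA, and the replicates differed by far more than in the episomal assay. The depth of its libraries is unknown, since the table gives RPM and no read totals. The median log2 ratio of mRNA to genomic DNA was -2.80 over the 21 mixed arrays, against -2.49 over homotypic FOXO arrays, -1.22 over homotypic MYC arrays and -1.45 over 513 constructs, on the scale of log2(RPM + 0.5), and the 3 rd constructs lay between -3.77 and 0.75. The homotypic medians include 1-copy arrays, at -0.061, -1.87 and -2.69 for FOXO and 0.26, 2.31 and -0.65 for MYC in contexts 1 to 3. By limma 1 of 21 was higher in mRNA and 14 were lower, beside 13.5% and 55.9% of all constructs. The counts fell to 0 higher without the barcode with the most mRNA in each construct, and to 8 lower without replicate 2. Scaled on the rd constructs, 5 were higher and 4 lower. Shares over all constructs are not given for these settings.

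MYC_FOXO_2 was the strongest integrated member, rank 32 of 513. Its mRNA read 1888, 2826 and 2555 RPM, against 835, 832 and 911 RPM of genomic DNA, a log2 ratio of 1.48 (SE 0.203, limma adjusted p = 0.00233). Its leading barcode alone gave 1507, 1684 and 1764 RPM of mRNA from 50.5, 13.3 and 23.3 RPM of genomic DNA, and without it the ratio was -0.24. FOXO_MYC_FOXO_2 had 3530, 2569 and 3122 RPM of mRNA, against 2440, 1999.5 and 2241 RPM of genomic DNA, a log2 ratio of 0.46 (SE 0.188, limma adjusted p = 0.0746). FOXO_MYC_3 had 1917, 1577 and 2042 RPM of mRNA, against 1339, 1331 and 1349 RPM of genomic DNA, a log2 ratio of 0.45 (SE 0.163, limma adjusted p = 0.051). Its leading barcode gave 1644, 1369 and 1631 RPM of that mRNA, and without it the ratio was -2.13. For FOXO_MYC_3 and MYC_FOXO_2 most of the mRNA came from a single barcode.

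All 6 integrated arrays with a replicate listed at 0 RPM of mRNA had 4 or 5 copies. FOXO_MYC_FOXO_MYC_FOXO_3 was listed at 0, 0 and 0.101 RPM of mRNA, against 478, 317 and 358 RPM of genomic DNA. FOXO_MYC_FOXO_FOXO_1 was listed at 0, 149 and 0 RPM, against 542, 501 and 697 RPM, and FOXO_MYC_FOXO_FOXO_3 at 66.6, 0 and 0 RPM, against 170, 339 and 302 RPM. These arrays rest on 11, 16 and 12 barcodes, so that a sample at 0 means no mRNA from a handful of barcodes, and folds against 0 are not given. FOXO_MYC_FOXO_FOXO_2 stands apart among the 4-copy arrays, with 532, 439 and 194 RPM of mRNA, against 368, 420 and 472 RPM of genomic DNA. The slope with copies was called in context 3 (-3.28 a copy, SE 0.235, limma adjusted p = 0.000424), with 1 of 3 lower and 0 higher beside 5.71% and 2.86% of all series, and it was not called with at least 20 barcodes per construct. Since mRNA at 0 enters it through the pseudocount, its size is not interpretable beyond its sign.

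Relative to integrated homotypic arrays, 4 of 21 mixed arrays were above the copy-weighted mean and 4 below (limma), beside 24.3% and 15.5% over all pairs. Those above were MYC_FOXO_2 by 3.89 (SE 0.428), FOXO_MYC_FOXO_2 by 2.94 (SE 0.226), FOXO_MYC_3 by 2.87 (SE 0.512) and MYC_FOXO_MYC_2 by 1.25 (SE 0.36), with limma adjusted p-values of 0.0022, 0.000953, 0.0109 and 0.0396. Those below were all in context 3: MYC_FOXO_3 at -1.58, FOXO_MYC_FOXO_3 at -3.29, MYC_FOXO_MYC_3 at -4.85 and FOXO_MYC_FOXO_MYC_FOXO_3, for which no size is given because 2 replicates of its mRNA and 1 of its 5-copy FOXO reference were listed at 0 and the pseudocount sets it. The calls of FOXO_MYC_FOXO_2 and MYC_FOXO_MYC_3 were made in all 11 settings run. The call of MYC_FOXO_MYC_2 was not made in 7 of its 11 settings, leaving out any 1 replicate among them, and that of MYC_FOXO_3 in 5 of 11, likewise, with 0.45 without the barcode with the most mRNA. FOXO_MYC_3, FOXO_MYC_FOXO_3 and FOXO_MYC_FOXO_MYC_FOXO_3 were each not called in 3 settings, and MYC_FOXO_2 was not called without the barcode with the most mRNA in each construct. For the 3-copy arrays of context 3 the reference holds MYC_MYC_MYC_3, whose leading barcode gave 68400, 69292 and 74273 RPM. Without the barcode with the most mRNA in each construct, 1 lay above and 1 below. Against FOXO arrays 4 were higher and 1 lower (22.9% and 23.7% over all pairs), against MYC arrays 6 and 6 (27.9% and 21.5%), and against rd 2 and 8 (30.4% and 29.4% of all arrays).

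Among integrated arrays, FOXO_MYC minus MYC_FOXO was -5.18 (SE 0.692) in context 2 and 4.45 (SE 0.637) in context 3 (limma adjusted p = 0.0057 and 0.00734). These have opposite directions, and the higher array of each pair, MYC_FOXO_2 and FOXO_MYC_3, is one whose leading barcode is shown above. The call of context 3 was not made without replicate 1, nor without the barcode with the most mRNA, where the difference was 2.05. Of 6 exchanges 1 was higher and 1 lower, beside 23.9% and 18.1%. The 3 contexts gave FOXO_MYC_FOXO minus MYC_FOXO_MYC differences of 1.94, 1.05 and -0.37, none past the test. For the fourth motif 0 of 3 exchanges were called in either direction, beside 6.45% higher and 6.45% lower, and 0 at an unadjusted p under 0.05 (limma). Between contexts 5 of 21 differences were higher and 4 lower, beside 13.2% and 17.1%, without the leading barcodes 1 was higher and 3 lower, and leaving out any 1 replicate left 1 or 2 higher.

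Counting integrated barcodes that gave any mRNA does not weight a barcode by its level. Of the 811 barcodes of the mixed arrays 197 had mRNA in at least 1 replicate, 24.3% (95% Clopper-Pearson interval 21.4% to 27.4%, counting error only). The shares were 28.6% (23.9% to 33.7%) for homotypic FOXO arrays of 2 to 5 copies, 22.2% (19.1% to 25.5%) for homotypic MYC arrays of 2 to 5 copies, 19.5% (12.9% to 27.6%) for rd and 36.6% (35.9% to 37.3%) for all constructs. The mixed arrays therefore had a share below that of the whole library and within the interval of the rd constructs. FOXO_MYC_FOXO had the highest share of the 7 orders, 35.8% (28.7% to 43.4%), against 19.6% (14.6% to 25.3%) for MYC_FOXO_MYC. Context 2 held 38 of the 63 barcodes of FOXO_MYC_FOXO that gave mRNA. There the shares were 53.5% (41.3% to 65.5%) for FOXO_MYC_FOXO_2 and 19.7% (10.6% to 31.8%) for MYC_FOXO_MYC_2. The intervals overlapped in context 1, with 27.3% (17% to 39.6%) for FOXO_MYC_FOXO_1 and 21.7% (12.1% to 34.2%) for MYC_FOXO_MYC_1, and in context 3, with 17.9% (7.54% to 33.5%) for FOXO_MYC_FOXO_3 and 18.3% (11.6% to 26.9%) for MYC_FOXO_MYC_3. These intervals count barcodes and do not cover the spread between replicates. Context 2 had 33.1% (27.2% to 39.3%), context 1 22.6% (17.7% to 28.2%) and context 3 18.5% (14.3% to 23.4%). The interval of context 1 overlapped those of both other contexts. FOXO_MYC_FOXO_2 alone gave 38 of the 82 barcodes with mRNA in context 2. The rd constructs gave 31.6% (17.5% to 48.7%) in context 2, 15.4% (5.86% to 30.5%) in context 1 and 13% (4.94% to 26.3%) in context 3, with overlapping intervals. Homotypic FOXO arrays gave 26.7%, 30.8% and 28.2% and homotypic MYC arrays 21.8%, 26.4% and 19.5% in contexts 2, 1 and 3, also with overlapping intervals.

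Across arrays the libraries ranked the members differently. Over the 18 arrays in both episomal libraries Spearman's rho between the 10 bp and 5 bp activities was 0.19, and over 21 arrays it was 0.042 between integrated and episomal 5 bp activities. Within a library the mRNA replicates gave a rho of 0.96 with 10 bp and 0.95 with 5 bp, and 0.56 between integrated replicates 1 and 2. These are descriptions over arrays that share a plasmid pool, and arrays of the same order share most of their sequence.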

How the data were processed

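Episomal values were whole-number counts of reads per barcode in the tables the authors deposited, and integrated mRNA and genomic DNA values were RPM as deposited by the authors, beside counts for the plasmid. Aligner and counting: not given in the sources used here. Total counts were 3850658 to 4563359 per episomal library, of which 16.6% to 18.5% fell on barcodes without a construct name and were left out, and 9 columns matched to no sample were not used. Barcodes needed at least 5 plasmid reads, constructs at least 5 episomal or 3 integrated barcodes, and reads were summed per construct. Activity is the log2 ratio of library shares. Episomal mRNA was tested against plasmid DNA with edgeR 4.0.16 (quasi-likelihood, TMM, 442 constructs in both spacer libraries, 6 libraries). Differences between arrays, and integrated log2(RPM + 0.5), were tested with limma 3.58.1 in R 4.3.3, with Benjamini-Hochberg adjustment over each whole table at 0.05. Both mRNA replicates of a spacer share 1 plasmid library, whose error the replicates do not show. Full statistics were given to arrays among the 3 highest and 3 lowest by activity in each library, among the 3 largest departures from the copy-weighted mean, or past a test of spacer, order, context or copies. Same-numbered replicates did not deviate together (correlations 0.0598, -0.0193 and 0.0532 in the integrated and 0.0467 between the episomal libraries), so the numbers were not taken as pairs. Members and lists were chosen with earlier results of these data known. Scripts were checked on simulated data. The alternatives tried included DESeq2 1.42.0, other scalings and filters, and leaving out each replicate.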

Additional observations from a re-analysis of the deposited data

Results flagged for a closer look

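The results below differed between the spacer lengths by a test of the difference itself. Spacer length and library cannot be told apart, and no cause was tested. The mRNA to plasmid DNA ratio was lower with 10 bp than with 5 bp in 14 of 18 mixed arrays (edgeR), beside 41.2% of all constructs. By limma, the departure from the copy-weighted homotypic mean was higher with 10 bp in 11 and lower in 2, beside 35.5% and 34.6% over all pairs. Once barcodes that had fewer than 20 reads in the plasmid library were left out, it was higher in 5 and lower in 1. The difference from FOXO arrays was higher in 5 and lower in 6 (28.4% and 39.1% over all pairs). The difference from MYC arrays was higher in 11 (40.1% over all pairs), and the difference from rd was lower in 18 (67.9% of all arrays). Between contexts 7 of 18 differences were higher and 4 lower, beside 49.3% and 19.3% of all. Of 3 slopes 1 was lower, beside 58.3% of all series. Of 3 exchanges of the fourth motif 1 was higher and 0 lower, beside 30.6% and 33.3% over all pairs.

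For 4 arrays the departure from the copy-weighted mean was called on opposite sides in the 2 libraries. FOXO_MYC_FOXO_1 departed by 0.26 with 10 bp and -0.19 with 5 bp, a difference of 0.45. FOXO_MYC_FOXO_FOXO_1 departed by 0.23 and -0.17, a difference of 0.40. FOXO_MYC_FOXO_FOXO_3 departed by 0.53 and -0.35, a difference of 0.87, and FOXO_MYC_FOXO_MYC_FOXO_1 by 0.60 and -0.47, a difference of 1.07. All 4 were above the mean with 10 bp and below it with 5 bp as reported. Of 13 settings, the 5 bp call of FOXO_MYC_FOXO_FOXO_1 was not made in 4, with -0.069 at a minimum of 20 plasmid reads per barcode (limma adjusted p = 0.54), and its 10 bp call in 2. For FOXO_MYC_FOXO_1 the 5 bp call was not made in 2 and the 10 bp call in 1, and for FOXO_MYC_FOXO_FOXO_3 the 10 bp call in 1. The calls of FOXO_MYC_FOXO_MYC_FOXO_1 were made in all 13.

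For 5 context differences both libraries gave a call, with opposite signs with 10 bp and with 5 bp. FOXO_MYC_FOXO_FOXO_2 minus FOXO_MYC_FOXO_FOXO_1 was -0.32 and 0.88, a change of -1.19, and FOXO_MYC_FOXO_FOXO_3 minus FOXO_MYC_FOXO_FOXO_2 was 0.63 and -0.67, a change of 1.31. FOXO_MYC_FOXO_MYC_2 minus FOXO_MYC_FOXO_MYC_1 was -0.39 and 0.53, a change of -0.92, and FOXO_MYC_FOXO_MYC_3 minus FOXO_MYC_FOXO_MYC_2 was 0.51 and -0.97, a change of 1.48. FOXO_MYC_FOXO_MYC_FOXO_2 minus FOXO_MYC_FOXO_MYC_FOXO_1 was -0.40 and 0.41, a change of -0.81. Each of the 5 involves context 2. At 10 bp, 2 of them lost the call in 1 setting each: FOXO_MYC_FOXO_MYC_3 minus FOXO_MYC_FOXO_MYC_2 without the barcode with the most mRNA (0.14, limma adjusted p = 0.148), and FOXO_MYC_FOXO_FOXO_2 minus FOXO_MYC_FOXO_FOXO_1 without 10 bp mRNA replicate 1 (-0.27, limma adjusted p = 0.0532). The slope on total copies in context 2 was -0.11 a copy with 10 bp and 0.20 with 5 bp, a change of -0.32. Its 10 bp value was not called in 3 of 11 settings, and without the 5-copy array the slopes were -0.28 and 0.28 and the change -0.56.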

How the results depend on the processing

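Of 4957 alternative values for single arrays, 4495 kept their side of the threshold, 321 lost the call and 104 gained it. Another 37 changed sign and were called as reported, in the alternative, or in both. Sign changes of values called in neither are counted among the 4495. Of 696 alternative counts, 617 stayed within 1.5 times. For most alternative settings the shares over all constructs or pairs are not given. Leaving out the barcode with the most mRNA and the exchange of the fourth motif were chosen after seeing the data. The cause of a change was not tested.

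Scaled on rd, the 5 bp counts were 14 higher and 1 lower, against 1 and 15 as reported. The log2 ratios became 0.27, 0.25 and 0.26 for FOXO_MYC_1 to FOXO_MYC_3, 0.27, 0.27 and 0.53 for MYC_FOXO_1 to MYC_FOXO_3, and 0.27, 0.48 and 0.65 for FOXO_MYC_FOXO_1 to FOXO_MYC_FOXO_3. They became 0.16 for FOXO_MYC_FOXO_FOXO_1, 0.36 for FOXO_MYC_FOXO_FOXO_3, 0.030 for FOXO_MYC_FOXO_MYC_1, 0.56 for FOXO_MYC_FOXO_MYC_2 and 0.38 for FOXO_MYC_FOXO_MYC_FOXO_1. Scaled by library totals 0 were higher, with -0.38 for FOXO_MYC_FOXO_FOXO_2 and -0.62 for FOXO_MYC_FOXO_MYC_FOXO_2. With each spacer alone 2 were higher, and FOXO_MYC_FOXO_MYC_2 had 0.0061. Scaled on rd, integrated activity had 5 higher and 4 lower, with 0.52 for FOXO_MYC_FOXO_1, 1.11 for FOXO_MYC_FOXO_FOXO_2 and 0.75 for MYC_FOXO_MYC_2.

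Against the stronger homotypic array, 1 array lay above with 5 bp (6 as reported), 1 above and 9 below with 10 bp (8 and 4), 7 below when integrated (4), and 5 were lower between spacers (2). Signs changed to -0.29 for FOXO_MYC_2, -0.27 for MYC_FOXO_2 and -0.085 for FOXO_MYC_FOXO_3 with 5 bp, to -0.29 for FOXO_MYC_3, -0.24 for MYC_FOXO_3, -0.57 for FOXO_MYC_FOXO_MYC_2 and -0.14 for FOXO_MYC_FOXO_MYC_FOXO_2 with 10 bp, and to -0.32 for FOXO_MYC_FOXO_MYC_FOXO_2 between spacers. With a mean of linear activities 7 lay below with 10 bp and 4 were lower between spacers, and FOXO_MYC_FOXO_MYC_2 had -0.094.

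Without the barcode with the most mRNA, integrated arrays had 0 higher in mRNA, 1 above and 1 below the copy-weighted mean, 1 above MYC, 4 below rd, 1 higher by context and 0 by order. Signs changed to -2.13 for FOXO_MYC_3 and -0.24 for MYC_FOXO_2 in activity, 0.45 for MYC_FOXO_3 against the mean and 0.52 for MYC_FOXO_MYC_2 against rd. With 10 bp 7 context differences were higher and 0 orders lower, with -0.25 for FOXO_MYC_FOXO_MYC_3 minus FOXO_MYC_FOXO_MYC_1 and -0.023 for FOXO_MYC_FOXO_MYC_3 against MYC. With 5 bp 2 lay below rd, as with no minimum of plasmid reads, which also gave 2 lower orders with 10 bp.

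With at least 20 plasmid reads per barcode, 3 lay above the mean, 1 above and 7 below FOXO and 4 context differences were higher with 5 bp. With 10 bp 0 orders were lower and 0 slopes higher, and between spacers 5 departures were higher and 1 lower. With at least 20 barcodes per construct, integrated arrays had 2 higher in mRNA, 2 below FOXO, 2 higher orders and 0 lower slopes. A pseudocount of 0.1 RPM gave 2 higher in mRNA. With the median over barcodes, 1 difference from MYC was lower between spacers. Without the 5-copy arrays 0 slopes were higher with 10 bp, and that of context 1 was -0.0049.

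The replicate numbers did not pair the samples. With the replicate block, 5 context differences were higher and 7 arrays lay below FOXO with 5 bp, 0 orders were lower with 10 bp, and 2 integrated context differences were higher and 2 lower. The other counts stayed within 1.5 times.

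Leaving out 1 replicate at a time with 5 bp gave 1 to 2 arrays below rd, 1 to 2 above and 7 to 10 below FOXO, 5 to 7 context differences higher, 0 to 1 orders lower and 0 to 1 slopes lower. With 10 bp it gave 0 to 1 orders lower, 0 to 1 slopes higher and 1 to 2 lower. Between spacers it gave 1 to 3 departures lower and 3 to 6 lower against FOXO. Integrated, it gave 8 to 10 lower in mRNA, 2 to 4 above and 2 to 3 below the mean, 2 to 5 above and 1 to 3 below FOXO, 3 to 5 above MYC, and 1 to 3 above rd. It also gave 1 to 2 context differences higher and 2 to 4 lower, 0 to 1 orders higher, 0 to 1 exchanges of the fourth motif higher and 0 to 1 lower. FOXO_MYC_FOXO_MYC_3 against rd ran from -3.20 to 1.61. Integrated depth is unknown, and few barcodes limit what it can show.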
